A study of Mus musculus with 40 samples.

Results

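The rows described here are 401 features of the deposited count table whose name begins with repRegion and that drew at least 100 reads over the 40 RNA-seq libraries of a study of mouse blood progenitors. The table holds 79325 such rows beside 49585 gene rows. Of the repRegion rows, 73084 had no count in any library and 5840 had 1 to 99 counts. The 401 were therefore chosen by their own summed counts, and how much they were counted is a description and not a finding. Each name consists of repRegion and a running number. The name is taken here to mean a repeat region. A row's kind of repeat, genome position, length and sequence were not given in the sources used here. Rows are thus identified by name alone, and a higher level of one row than of another cannot be read per length.

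Repeat sequences make up a large part of mammalian genomes and include retrotransposons (LINE and SINE elements and endogenous retroviruses), DNA transposons, simple repeats and satellites, and copies of small structural RNAs. Cells keep most retrotransposons silent through DNA methylation, repressive histone marks and the complexes that place or read them, while other repeats are transcribed as part of the genes in which they lie. Mbd3 is a subunit of NuRD, a complex that joins nucleosome remodelling to histone deacetylation. Because copies of a repeat can be nearly identical, reads may match several rows. How such reads were counted was not given in the sources used here.

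Bone marrow from femurs and tibiae of 10 mice was used, all of mixed C57BL6/129Ola strain and aged 46 to 51 days. The genotype of 5 control mice was Mbd3_Flox/Flox and that of the other 5 was Mbd3_Del/Del (Mbd3del below), and which Cre made the deletion was not given in the sources used here. From each mouse 4 populations were sorted along the path to the B lineage. Haematopoietic stem cells (HSC) were CD45+ CD150+ CD48- EPCR+. Lymphoid-primed multipotent progenitors (LMPP), all-lymphoid progenitors (ALP) and B cell-biased lymphoid progenitors (BLP) were Lin- Sca-1+ c-Kit+ Flt3hi B220-. The LMPP lacked IL-7Ra, the ALP carried it without Ly6D and the BLP carried it with Ly6D. This gave 8 groups of 5 libraries, each made from a pool of 100 or 150 cells.

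Gene counts ran from 2974305 to 9082610 per library, and repRegion rows took 0.205% to 2.28% of all counts. Levels are given as CPM relative to the gene counts of a library, so that repRegion counts do not enter the scale. A total of 3 counts corresponds to 0.330 to 1.01 CPM, depending on the library. Mbd3 itself was at 8.18 CPM or more in the 20 control libraries and at 3.24 CPM or less in the 20 Mbd3del libraries. Of the transcripts of the sort markers, Il7r lay at 244.6 to 1555 CPM in ALP and BLP and at no more than 6.60 CPM in HSC and LMPP. Ly6d lay at 3646 CPM or more in BLP, but at 47.0 to 492.7 CPM in ALP, which were sorted as lacking Ly6D, against 1.73 to 39.9 CPM in LMPP. The c-Kit transcript Kit was lower in ALP and BLP (16.2 to 209.1 CPM) than in HSC (417.9 CPM or more), and Ly6a, a gene for Sca-1, was at 0.661 CPM in 1 control ALP library. The libraries of 2 control mice, mouse10372 and mouse10381, carried sex-linked transcripts that go against their labelled sex, and the calls without them are given after those of the main test. The animal mouse10372 also gave the library with the fewest genes detected (LMPP, 12845) and the one with the most (ALP, 15745).

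Reads were spread very unevenly over the 401 rows. They drew 1710827 counts, which is 96.6% of all repRegion counts. A single row, repRegion26734, held 1409199 of these, or 82.4%. The other 400 rows shared 301628 counts, of which the next 9 rows held 37.0%. At least 1000 counts were reached by 50 rows, while 184 rows had only 100 to 199, and the median total was 227. Detection ranged from all 40 libraries (40 rows) down to 2 libraries, with a median of 29. A library detected between 213 (control LMPP of mouse10372) and 322 (Mbd3del ALP of mouse10376) of the 401 rows.

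Compared with gene rows in the same range of total counts, the less counted rows were found in more libraries, with no test made. Among the 351 rows with 100 to under 1000 counts the median row was found in 27 libraries, and its highest library supplied 13.3% of its counts. The 4003 gene rows in that range were found in a median of 19 libraries, with 19.1% from the highest one. In the range of 1000 to under 10000 counts the 46 repRegion rows and the 5353 gene rows were each found in a median of 39 libraries, with 7.85% and 8.35% from the highest library. The threshold cut through a dense stretch of totals, with 26 rows at 100 to 109 counts and 32 at 90 to 99. Just inside it, repRegion50251, repRegion42568 and repRegion14883 had 100 counts each, in 17, 15 and 26 libraries. Just outside it, repRegion44603 had 99 counts in 31 libraries, repRegion05908 had 98 in 9 libraries and repRegion28814 had 98 in 28 libraries.

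**Figure D1:**
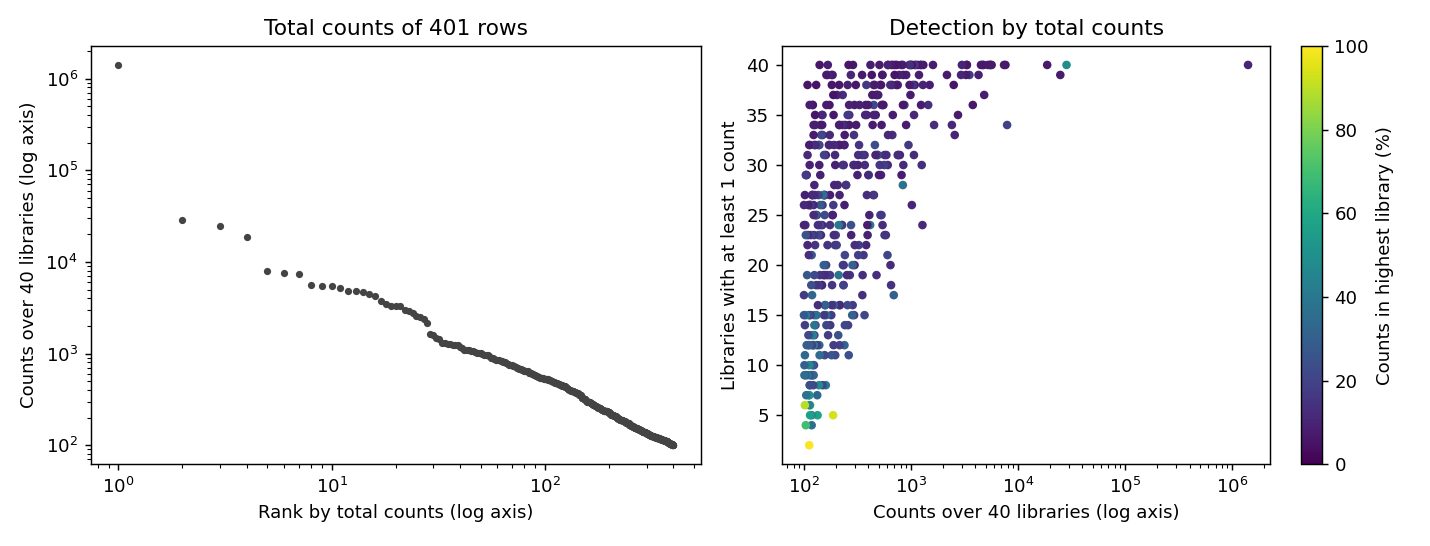
Left, total counts over 40 libraries of each of the 401 rows against its rank (both axes logarithmic). Right, the number of libraries with at least 1 count against the total (logarithmic axis), coloured by the share of a row's counts in its highest library; repRegion26734 stands alone at 1409199 counts, and the 8 rows with over 50% of their counts in 1 library lie between 102 and 187 counts.

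The most counted row, repRegion26734, varied widely between mice of 1 group, and no group stood apart. In the HSC of control mouse10357, mouse10358, mouse10372, mouse10380 and mouse10381 it was at 4559, 1883, 2382, 2353 and 7238 CPM, and in the HSC of Mbd3del mouse10360, mouse10361, mouse10365, mouse10376 and mouse10384 at 3644, 2658, 5496, 3125 and 10720 CPM. In LMPP, in the same order of mice, the control values were 7402, 3714, 507.6, 3720 and 4791 CPM and the Mbd3del values 22049, 8008, 10200, 3209 and 3162 CPM. Both extremes of the whole series are in this population: the lowest library is control mouse10372 and the highest is Mbd3del mouse10360. In the lowest library 12845 genes were detected and mitochondrial genes took 7.75% of gene counts. The highest library had 14798 genes and 4.27%. A link between the level of this row and such measures of library quality was not tested. In ALP the control values were 8697, 15149, 11631, 1466 and 5356 CPM and the Mbd3del values 3749, 2778, 4166, 6425 and 1283 CPM. In BLP they were 7592, 10552, 1348, 2853 and 1457 CPM in controls and 8210, 2421, 4566, 3317 and 2318 CPM in Mbd3del mice. The 2 genotypes overlap in every population, and no mouse is the highest of its group in all 4 populations.

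Because this row holds most of the reads, it also sets the sum over all 401 rows. That sum was 4793 ± 2231 CPM in control and 6458 ± 3544 in Mbd3del HSC (mean ± SD, n = 5 in each group, as in the next sentences). It was 4995 ± 2358 and 10343 ± 7689 CPM in LMPP and 10552 ± 6585 and 4761 ± 1773 CPM in ALP. In BLP it was 5998 ± 4060 and 5364 ± 2550 CPM. The mean log2 difference, Mbd3del minus control, was 0.39 in HSC, 0.91 in LMPP, -0.92 in ALP and -0.00443 in BLP. None passed the two-sided exact permutation test, with adjusted p over the 4 populations of 0.487, 0.365, 0.365 and 1. The smallest p that 5 against 5 mice allow in this test is 0.00794. Between LMPP and ALP the within-mouse change was 1.83 lower on the log2 scale in Mbd3del than in control mice, which did not pass either (exact permutation p = 0.0873, adjusted p = 0.262). Along the path, pooling genotypes, the sum changed by 0.28 from HSC to LMPP, by 0.00494 from LMPP to ALP and by -0.31 from ALP to BLP (log2, permutation test, adjusted p of 0.714, 0.991 and 0.714).

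**Figure D2:**
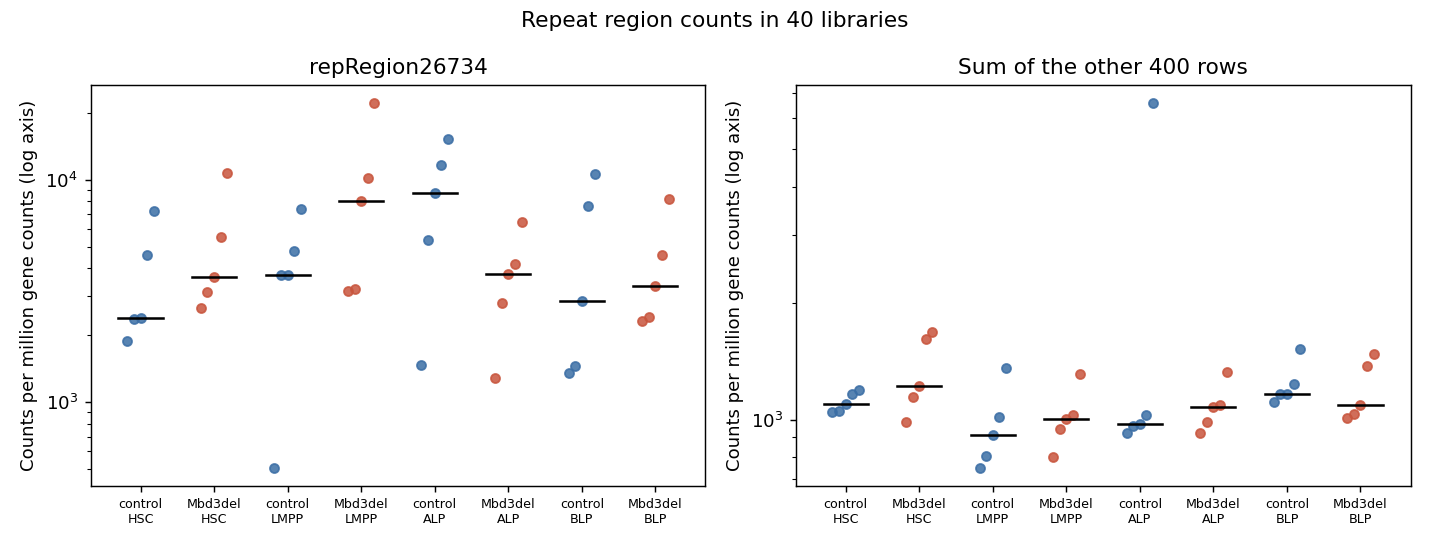
Level of repRegion26734 (left) and of the sum of the other 400 rows (right) in each of the 40 libraries, in CPM on a logarithmic axis; points are libraries (blue control, red Mbd3del) and bars are group medians. The left panel spans 507.6 to 22049 CPM with overlapping genotypes, and the right panel is narrow except for 1 control ALP library at 6574 CPM.

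The other 400 rows together varied less from library to library. Their sum was 1110 ± 65.4 CPM in control HSC, 968 ± 242 in control LMPP and 1238 ± 165 in control BLP (n = 5 each), and 1329 ± 304, 1018 ± 188 and 1198 ± 215 CPM in the same populations of Mbd3del mice. In Mbd3del ALP it was 1081 ± 154 CPM. Control ALP is the exception: mouse10357, mouse10358, mouse10380 and mouse10381 lay between 925.1 and 1026 CPM, whereas mouse10372 lay at 6574 CPM. No genotype difference in this sum passed the exact permutation test (log2 difference 0.23 in HSC, 0.09 in LMPP, -0.41 in ALP and -0.06 in BLP, adjusted p of 0.857, 0.929, 0.929 and 0.929). From HSC to LMPP the mean change of the sum was -0.30 on the log2 scale, short of the threshold after adjustment (permutation p = 0.0235, adjusted p = 0.0706). With the 9 next most counted rows left out as well, it fell by 0.23 and passed (permutation p = 0.00661, adjusted p = 0.0198). Both permutations treated libraries as independent, although the HSC and LMPP came from the same mice. The form with the mouse as a block, and other scalings, were run only for the sum over all 401 rows. Gene rows themselves had a median log2 change of -0.12 at this step. The labels give 150 cells for an HSC pool and 100 for the others, and the design text the reverse, so the number of cells changes with this step and its part in the result was not tested. Fewer cells that carry an RNA and less of it per cell cannot be told apart in such pools.

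The high control ALP library drew 13810 counts on 1 row, repRegion24320, the second most counted of all. That is 4106 CPM and 62.5% of the counts of this library on the 400 rows other than repRegion26734. The next highest libraries for this row were 2 of Mbd3del HSC, at 541.2 CPM (mouse10384) and 496.0 CPM (mouse10365), and the other 4 control ALP libraries held 29.6 ± 19.8 CPM (SD, n = 4). The same library was the highest of all 40 for 69 of the 401 rows (17.2%), although 157 rows had no count in it. Its level over the 5840 rows left out by the threshold was 1741 CPM, against 367.2 CPM in the next highest library. Its gene counts were 3363182. Without this library, an exclusion made after its value was seen, the sum of the other 400 rows was 0.23 higher on the log2 scale in BLP than in ALP (permutation p = 0.0174, adjusted p = 0.0353), where with it the change was -0.04 (adjusted p = 0.993). The ALP genotype difference then was 0.14 (exact permutation, adjusted p = 0.429). The test from ALP to BLP treated libraries of the same mice as independent.

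Row by row, differences along the path were found for 15 of the 401 rows and genotype differences for none with the main test. A row was called at an adjusted p below 0.05 in edgeR's quasi-likelihood test, fitted over gene and repRegion rows together. Low rows were removed by edgeR's filter, so that 195 of the 401 rows were tested in at least 1 of 7 comparisons, 60 in all 7 and 206 in none. A row can pass that filter through 1 high group alone, so the counts below describe the rows tested and not all 401. From HSC to LMPP 12 of 140 tested rows were called, 7 higher and 5 lower, where 15.9% of all tested rows were called (6.51% higher and 9.35% lower). From LMPP to ALP it was 4 of 151, 3 higher and 1 lower, against 3.74% of all rows (1.91% and 1.83%). From ALP to BLP it was 1 of 151, higher, against 0.946% (0.713% higher and 0.232% lower). Without control mouse10372 and mouse10381 the counts were 16 (9 higher and 7 lower), 2 and 1, against 14.5%, 3.82% and 0.856% of all rows. Then 4 of the 17 calls were lost, those of repRegion20229 and repRegion24320 in the first step (edgeR adjusted p of 0.0697 and 0.140) and of repRegion57222 and repRegion53133 in the second (0.194 and 0.0525). The libraries of the 2 populations did not overlap for 5 rows in the first step, 1 in the second and 1 in the last, where this held for 3.5%, 0.996% and 0.241% of all tested rows. The median log2 change of the tested repRegion rows was -0.19, 0.06 and 0.00 in the 3 steps, and that of gene rows -0.12, 0.00 and -0.11. The median biological coefficient of variation was 0.850 to 0.996 over the repRegion rows of a comparison and 0.518 to 0.614 over its genes. These 2 sets were not matched for depth, so the difference cannot be read as a trait of repRegion rows. In the ranges of total counts above, the highest library supplied a smaller median share for repRegion rows (13.3% against 19.1%, and 7.85% against 8.35%). That share is taken over all 40 libraries and also holds differences between populations and in library size. It does not measure the spread within a group.

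**Figure D3:**
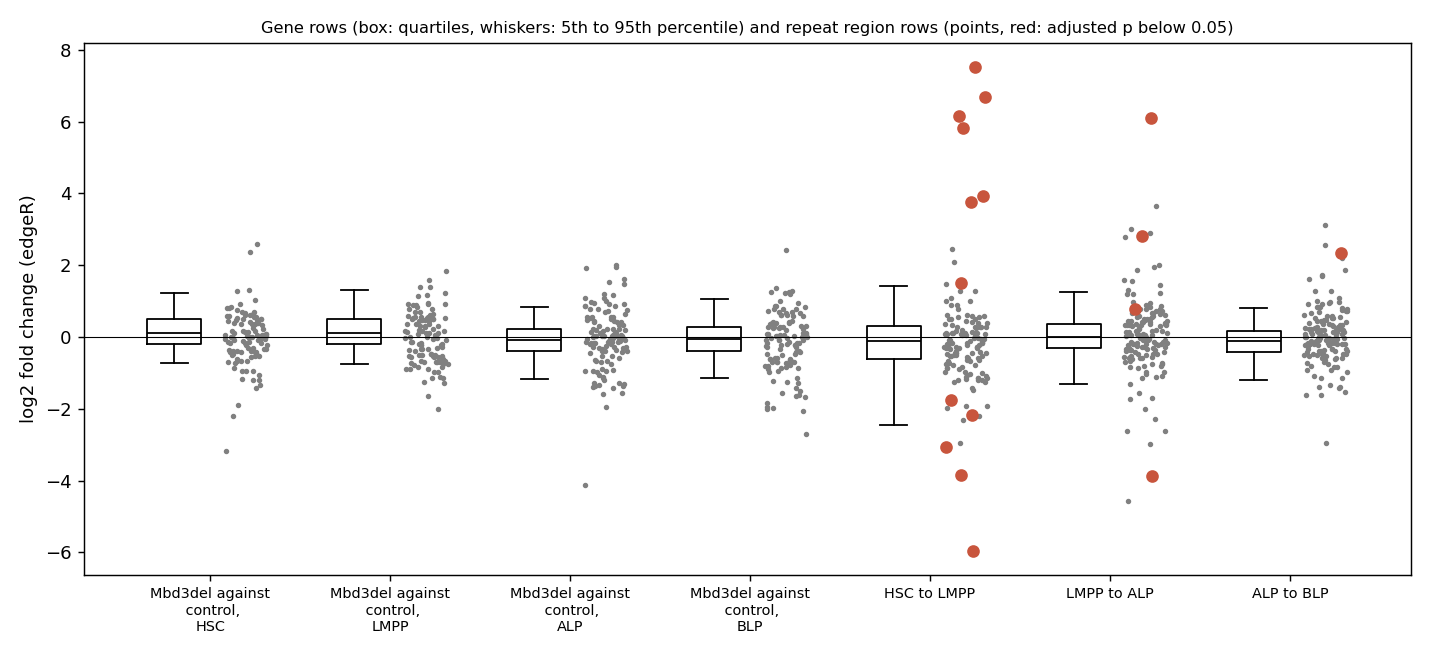
Fitted log2 fold change (edgeR) in the 7 comparisons, Mbd3del over control or later over earlier population: boxes show the quartiles and whiskers the 5th to 95th percentile of gene rows, points the tested repRegion rows, with rows at an adjusted p below 0.05 in red. Called rows appear only in the 3 comparisons between populations (12, 4 and 1), and the fitted values of the rows with no count in HSC depend on edgeR's prior count.

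A large rise was that of repRegion57222, which ranked 3 in total counts. Its level in HSC ran from 0 to 6.24 CPM with a median of 0.663 over 10 libraries. In LMPP it ran from 40.8 to 154.9 with a median of 65.2 CPM, in ALP from 76.5 to 182.9 with a median of 135.6, and in BLP from 89.1 to 241.8 with a median of 153.2. Every LMPP library lay above every HSC library. The HSC to LMPP change was 5.83 ± 0.54 (log2, SE; edgeR quasi-likelihood, adjusted p = 2.55e-08), and it stayed past the threshold in 18 of 18 alternative analyses. LMPP and ALP libraries overlap, and the further rise of 0.77 ± 0.21 (adjusted p = 0.0410) was lost in 12 of 18 alternatives, among them 8 of the 10 that left out 1 mouse (all but mouse10360 and mouse10365; adjusted p of 0.0257 to 0.118). Over the 40 libraries the gene whose level on the log2(CPM + 1) scale followed the row most closely was Ighm, the immunoglobulin mu heavy chain gene (Pearson r = 0.978 of 10581 gene rows searched). Cd244a (0.964), Cst7 (0.963) and Dntt (0.962), which encodes the terminal transferase of early lymphoid cells, were also among the closest. These likenesses describe libraries that share their population and depth, and were looked up after the rows' values were seen.

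Ighm, a marker shared with mature B cells, moved with this row. It was at 5.98 to 22.9 CPM in HSC, 429.0 to 1658 CPM in LMPP, 1533 to 3285 CPM in ALP and 1935 to 4494 CPM in BLP. Ms4a1, another marker of mature B cells, had no count in any ALP or BLP library of either genotype. The part of other cells in the rise of the row was not tested.

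A later rise was that of repRegion61196, which was at or near 0 in HSC and LMPP. Its level reached at most 0.621 CPM in HSC and 1.07 CPM in LMPP, with no count in 3 of 10 libraries in each. In ALP it ran from 6.42 to 41.5 CPM with a median of 15.5, and in BLP from 46.9 to 230.7 with a median of 89.5. Neither step had overlapping libraries. The change was 6.09 ± 0.76 from LMPP to ALP (edgeR, adjusted p = 9.44e-06) and 2.34 ± 0.36 from ALP to BLP (adjusted p = 0.000403), the only repRegion row called in the last step. The genes most like it were Siglech (r = 0.979), known from plasmacytoid dendritic cells, then Fcrla (0.958), Blk (0.947), Rag1 (0.945) and Ebf1 (0.945), genes of early B lineage cells. Siglech itself was at no more than 1.92 CPM in LMPP, at 29.7 to 112.5 CPM in ALP and at 138.7 to 1146 CPM in BLP. The 4 listed dendritic cell genes, Siglech, Bst2, Irf8 and Cd74, summed to 795.9 to 1780 CPM in control and 1786 to 3541 CPM in Mbd3del BLP. In the same libraries repRegion61196 was at 88.8, 64.2, 105.2, 46.9 and 90.2 CPM in controls and 230.7, 50.2, 88.0, 133.3 and 103.6 CPM in Mbd3del mice. These overlap (log2 difference 0.62 ± 0.36, edgeR adjusted p = 0.742), and a link to the dendritic cell genes was not tested.

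Between these lies repRegion05115. It had no count in 7 of 10 HSC libraries and at most 0.278 CPM in the others, was at 0.639 to 4.78 CPM in LMPP (median 1.93), 2.08 to 38.1 CPM in ALP (median 16.9) and 9.30 to 30.1 CPM in BLP (median 17.7). The lowest ALP library, control mouse10372, is the one that overlaps with LMPP. The LMPP to ALP change was 2.82 ± 0.54 (edgeR, adjusted p = 0.00185). Its closest genes were Cox6a2 (r = 0.936), a cytochrome c oxidase subunit, Xrcc6 (0.925), which encodes Ku70 of DNA end joining, Ifi209 (0.920), Tmem108 (0.918) and Mta3 (0.911), itself a NuRD subunit.

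A smaller and broader change was seen for repRegion20229, found in all 40 libraries. It was at 3.96 to 18.5 CPM in HSC (median 7.51), 10.9 to 54.0 in LMPP (median 22.2), 13.4 to 38.2 in ALP (median 18.2) and 11.8 to 42.4 in BLP (median 20.9). HSC and LMPP overlap. The change between them was 1.51 ± 0.39 (edgeR, adjusted p = 0.00867), and without control mouse10372 and mouse10381 it was 1.21 and no longer past the threshold (adjusted p = 0.0697). Its closest genes were Cks1b (r = 0.853), Tubb5 (0.843), H2afz (0.838) and Pcna (0.829), which encode a cyclin-dependent kinase subunit, a tubulin, a histone variant and the DNA polymerase clamp.

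The other rows that rose from HSC to LMPP were all low, under 5 CPM in the mean of either population, and are named here after their values were seen. No read fell on repRegion17007 in any HSC library, against 269 reads in LMPP, where all 10 libraries had it (0.463 to 8.40 CPM). Taking 3 counts over all HSC libraries as the floor, it was at least 71.0-fold higher in LMPP. Likewise repRegion26067 had 0 reads in HSC and 148 in LMPP, at least 39.1-fold higher. With 1 read in HSC and 182 in LMPP, repRegion10556 had a ratio of scaled counts of 144 (95% interval 25.5 to 5723, counting error only). For repRegion50068 the counts were 11 and 222, and for repRegion01950 they were 10 and 179. In ALP repRegion50068 had 86 reads, all in control mice, and in BLP it had 211. Neither edgeR nor DESeq2 called this genotype difference in ALP. All 5 were past the threshold (edgeR adjusted p of 5.37e-05 to 0.00650), and 1 of them, repRegion17007, had no overlap between the 2 populations.

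Of the rows that fell from HSC to LMPP, repRegion26427 had the most counts without overlap between the populations. It was at 5.53 to 31.1 CPM in HSC (median 11.3) and at 0 to 5.03 CPM in LMPP (median 0.739), a change of -3.84 ± 0.80 (log2, edgeR, adjusted p = 0.00147). In ALP its median was 3.17 CPM, but control mouse10372 reached 57.4 CPM, and in BLP it was 2.06 CPM. Most reads of repRegion14982 came from HSC. It was at 2.87 to 8.57 CPM in all 10 HSC libraries and at 0 to 1.44 CPM in LMPP, it had no count in any of the 10 ALP libraries (each of which could have held up to the 3-count floor), and it was counted in 1 of 10 BLP libraries (0.128 CPM). The HSC to LMPP change was -3.06 ± 0.71 (adjusted p = 0.00356).

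Another 3 rows fell at this step. With 2.70 to 6.76 CPM in HSC and 0 to 2.31 CPM in LMPP, repRegion57261 changed by -2.17 ± 0.64 (edgeR, adjusted p = 0.0211) without overlap, and was past the threshold no longer without mouse10357 (adjusted p = 0.0552) or mouse10376 (0.0567). For repRegion72323, 125 reads in HSC stood against 1 in LMPP (adjusted p = 0.000124). It was counted again later, with 51 reads in ALP and 58 in BLP. The fall of repRegion24320, -1.75 ± 0.59 (adjusted p = 0.0458), was lost in 11 of 18 alternatives. The medians were 30.1 CPM in HSC and 25.9 CPM in LMPP. Its adjusted p was 0.319 with the mouse as a block, 0.147 without mouse10365, 0.118 without mouse10384 and 0.147 without mouse10381, and 0.0519 to 0.0547 without mouse10358, mouse10360 or mouse10380. From LMPP to ALP 1 row fell: repRegion53133 had 178 reads in LMPP and 12 in ALP (-3.87 ± 0.98, adjusted p = 0.0226), a call lost without mouse10357, mouse10358, mouse10360, mouse10361 or mouse10376 (adjusted p of 0.0523 to 0.0753). In BLP this row had 83 reads. Of these rows, repRegion57261, repRegion72323 and repRegion53133 fall outside the rule for named rows and were picked after their values were seen.

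**Figure D4:**
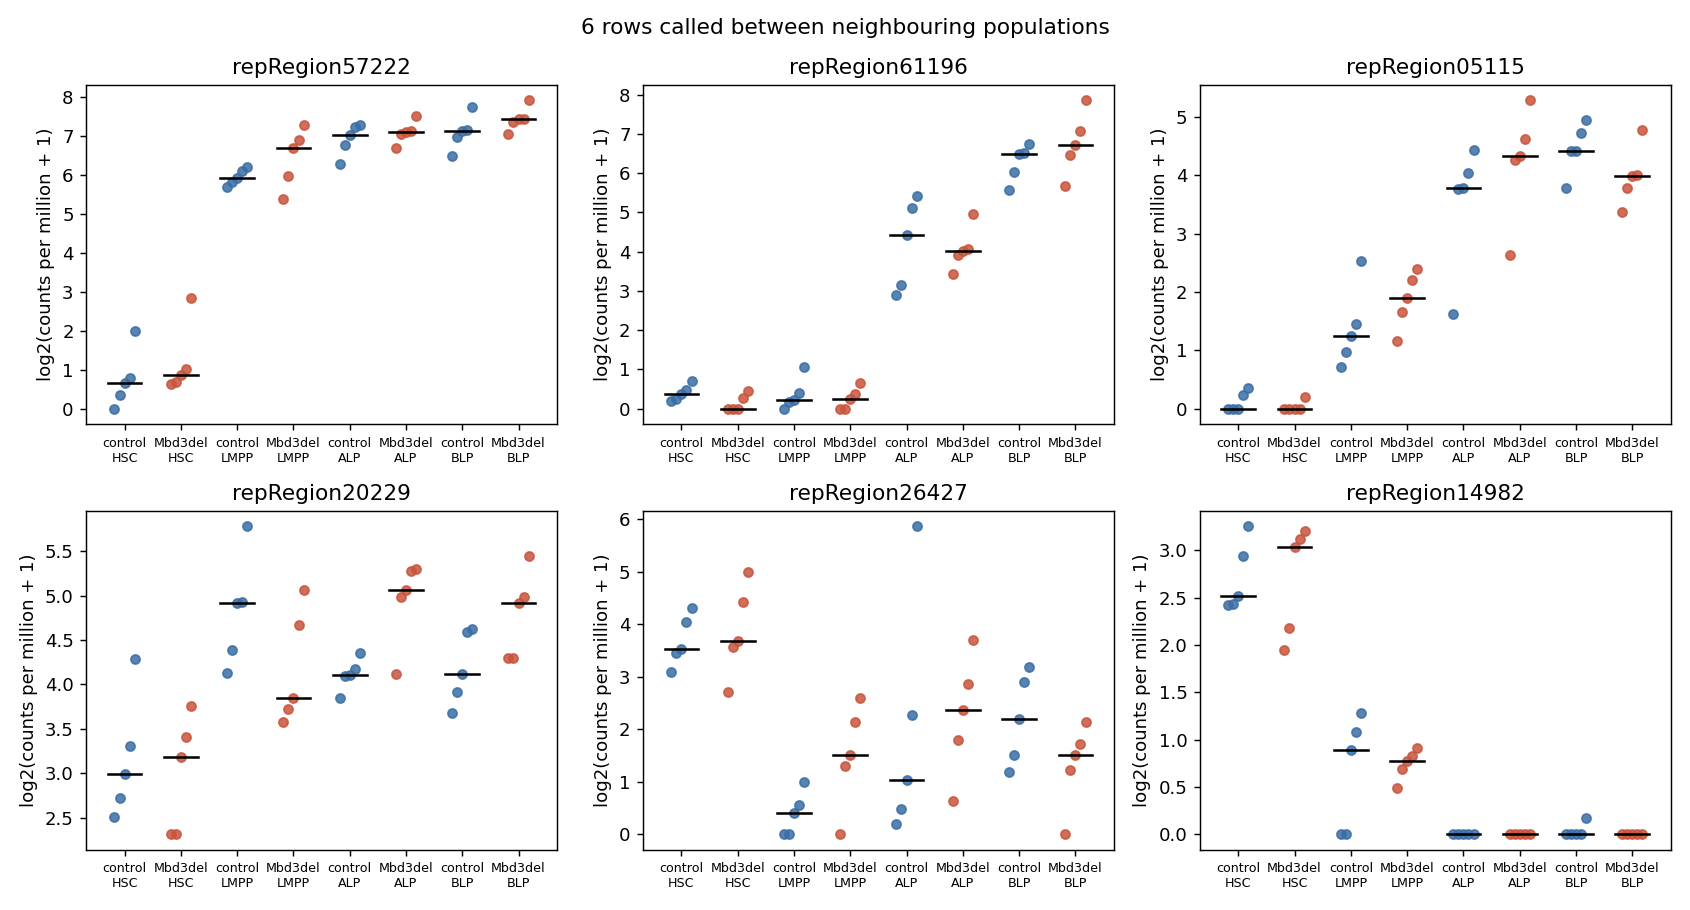
Level of 6 rows called between neighbouring populations, as log2(CPM + 1), in each library (points, blue control, red Mbd3del) with group medians (bars); the 2 genotypes are drawn side by side in each population. On this scale the largest rise of repRegion57222 comes at LMPP and those of repRegion61196 and repRegion05115 at ALP, while repRegion26427 and repRegion14982 are highest in HSC. The median of repRegion05115 was already higher in LMPP (1.93 CPM) than in HSC (0 CPM), a change that was not called.

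Some of the best counted rows followed each other from library to library. Among the 50 rows with 1000 or more counts, 8 of 1225 pairs had a Pearson r above 0.8 on the log2(CPM + 1) scale over the 40 libraries, and the median over all pairs was -0.01. The closest were repRegion70370 with repRegion34065 (r = 0.987) and with repRegion19651 (0.987), and these 2 with each other (0.978). A further row, repRegion34062, followed the 3 at 0.862 to 0.881. The first, repRegion70370, was at 79.4, 39.0, 84.0, 31.4 and 25.2 CPM in the 5 Mbd3del HSC libraries and at 52.7, 48.7, 20.8, 40.7 and 3.89 CPM in the control ones. Its highest library was the control ALP library of mouse10372, at 129.6 CPM, and its lowest the Mbd3del LMPP library of mouse10365, at 1.61 CPM. Across this range the ratio of repRegion19651 to it stayed between 0.512 and 1.01 with a median of 0.755, and that of repRegion34065 between 0.405 and 1.11 with a median of 0.739. The ratio of repRegion34062 to it was less even, from 0.222 to 2.11 with a median of 0.394. The other 2 pairs above 0.8 were repRegion61196 and repRegion57222, each with repRegion05115 (0.848 and 0.805). Over the 31 pairs of rows with neighbouring numbers among all 401, r ran from -0.26 to 0.89 with a median of 0.32. Of these, 3 were above 0.8: repRegion34064 with repRegion34065 (0.894), repRegion25594 with repRegion25595 (0.878) and repRegion06238 with repRegion06239 (0.848). The gene closest to repRegion70370, repRegion19651 and repRegion34065 was in each case mt-Nd2, a mitochondrial gene (r = 0.759, 0.740 and 0.738). It was looked up after the rows' values were seen. Whether rows that move together share reads or a transcript was not tested.

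**Figure D5:**
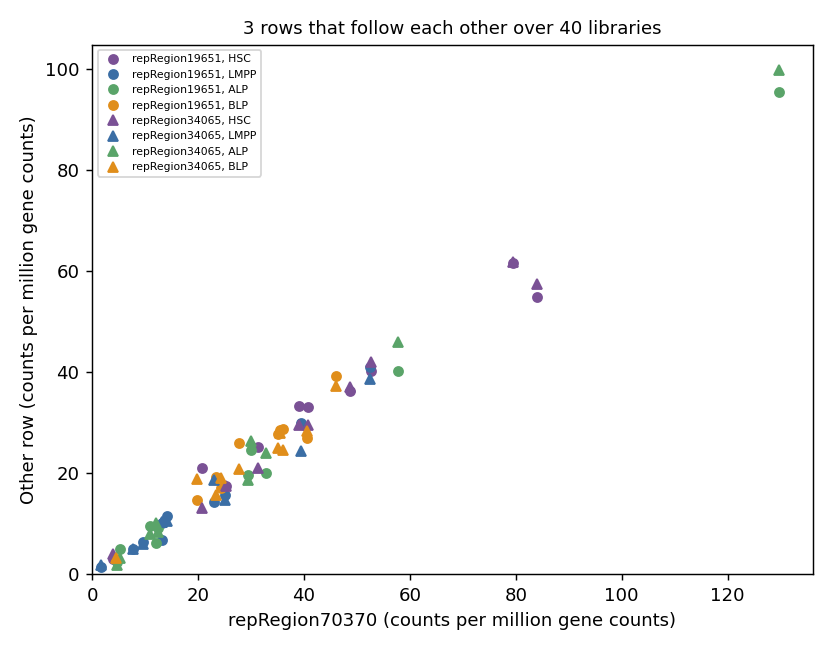
Level of repRegion19651 (circles) and repRegion34065 (triangles) against that of repRegion70370 in 40 libraries, all in CPM on linear axes, coloured by population. The points rise together from 1.61 to 129.6 CPM, and all 4 populations are spread along it.

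At the even end, 20 rows had a mean above 5 CPM in all 8 groups, and the 5 most even of these varied by 1.62 to 2.09 times between their lowest and highest group mean. The most even, repRegion18321, lay between 17.5 CPM (Mbd3del BLP) and 28.4 CPM (control HSC). Then came repRegion26295 (9.28 to 16.1 CPM), repRegion48685 (12.2 to 22.3), repRegion25328 (8.34 to 15.4) and repRegion60159 (54.7 to 114.4). Even group means did not mean even libraries: repRegion60159, which ranked 4 in counts, ran from 17.5 CPM in an Mbd3del HSC library to 370.5 CPM in the control ALP library of mouse10372. At the other end, 8 rows drew over 50% of their counts from 1 library. The 3 highest shares were 99.1% for repRegion64762 (control ALP of mouse10372, 112 counts in all), 93.6% for repRegion68819 (control LMPP of mouse10372, 187 counts) and 89.2% for repRegion34572 (control HSC of mouse10380, 102 counts).

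Between genotypes the main test called no repRegion row. The edgeR test called 0 of 105 tested rows in HSC, 0 of 112 in LMPP, 0 of 122 in ALP and 0 of 116 in BLP. Calls were rare in the whole table too, at 0.0174%, 0.0181%, 0.018% and 0.0276% of all rows tested. At an unadjusted p below 0.05 there were 4, 1, 2 and 3 repRegion rows, where 4.53%, 4.61%, 2.26% and 8.27% of all tested rows were below it. The share among the repRegion rows was the lower one in each population, but it rests on 1 to 4 rows and is not read as a trait of them. The tested rows were split with 50 positive and 55 negative changes in HSC, 54 and 58 in LMPP, 61 and 61 in ALP and 52 and 64 in BLP. Their median log2 change was -0.01, -0.04, -0.01 and -0.09, against 0.10, 0.12, -0.07 and -0.05 for gene rows. With TMM scaling the medians were -0.09, -0.13, 0.02 and -0.11 for repRegion rows. Those of gene rows were 0.02, 0.01, -0.04 and -0.03. The split was 44 and 61 in HSC, 48 and 64 in LMPP, 63 and 59 in ALP and 54 and 62 in BLP. DESeq2 tested 340, 303, 362 and 278 of the rows. Its split was 178 and 162 in HSC, 163 and 140 in LMPP, 162 and 200 in ALP and 119 and 159 in BLP. The 10 most counted rows were at adjusted p of 0.742 or more wherever they were tested.

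The libraries of the 2 genotypes did not overlap for 5 rows, which are named after their values were seen. In HSC this was 1 of 105 tested rows, where 1.02% of all rows tested did not overlap. In controls repRegion25434 was at 15.6, 8.41, 5.59, 5.18 and 3.20 CPM, and in Mbd3del mice at 0, 0, 1.53, 1.02 and 1.44 CPM (log2 difference -3.18 ± 1.12, edgeR adjusted p = 0.925). In LMPP 2 of 112 rows did not overlap (1.46% of all rows), repRegion39067 with means of 4.08 and 1.29 CPM in control and Mbd3del mice, and repRegion52345 with 7.92 and 3.32 CPM (edgeR adjusted p = 0.995 for both). In ALP it was 1 of 122 rows (0.773%), repRegion07562 with 3.44 and 1.32 CPM (adjusted p = 0.9998). In BLP it was 1 of 116 rows (2.56%), repRegion25085, at 35.5, 21.5, 47.3, 26.7 and 35.3 CPM in controls and 20.0, 16.4, 18.9, 19.3 and 19.7 CPM in Mbd3del mice (-0.82 ± 0.35, adjusted p = 0.557). All 5 were lower in Mbd3del mice, and none passed the threshold. The shares of all rows given here hold both directions, so this common direction has no share to be set against.

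DESeq2, run as an alternative, called 5 rows between genotypes. They were 0 of 340 in HSC, 1 of 303 in LMPP, 1 of 362 in ALP and 3 of 278 in BLP, where DESeq2 called 0.371%, 0.897%, 0.229% and 1.8% of all rows. The shares of tested repRegion rows lay below these in HSC, LMPP and BLP, and 1 row in ALP was 0.276%. With at most 3 rows called in a population, these shares are not read as a trait of the rows. In LMPP repRegion31612 had no count in any control library and was at 3.09, 2.0, 1.43, 3.21 and 1.35 CPM in Mbd3del mice (DESeq2 adjusted p = 0.000132). It did not pass the filter of the edgeR test. It was also counted in 2 control ALP libraries, at up to 3.01 CPM, and in 3 Mbd3del ALP libraries, at up to 11.03 CPM. In ALP repRegion07707 was at 5.81, 4.58, 3.27, 0 and 3.13 CPM in controls and at no more than 0.143 CPM in Mbd3del mice (DESeq2 adjusted p = 0.0474). Its means in control and Mbd3del mice were 4.03 and 0.651 CPM in HSC and 1.28 and 0.500 CPM in LMPP, with overlapping libraries. In BLP it was at 0.278 to 3.11 CPM in controls and 1.83 to 4.25 CPM in Mbd3del mice. In BLP repRegion27102, repRegion52164 and repRegion58052 were lower in Mbd3del mice (DESeq2 adjusted p of 0.0157, 0.0315 and 0.00579), of which edgeR tested repRegion52164 (-1.85 ± 0.70, adjusted p = 0.490). That row was at 8.26, 5.26, 23.7, 11.9 and 14.5 CPM in controls and 3.03, 2.82, 1.74, 5.73 and 4.16 CPM in Mbd3del mice, which overlap by 1 library on each side. In BLP repRegion27102 was at 0.278 to 8.89 CPM in controls and 0 to 0.386 CPM in Mbd3del mice. For repRegion58052 it was 0.511 to 25.0 CPM and 0 to 0.771 CPM, so both rows overlap. In HSC the mean of repRegion27102 was higher in Mbd3del mice (2.62 against 0.161 CPM), where the highest library reached 12.1 CPM.

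Genes linked to the control of repeats, in either direction, were described beside the rows, from a list of 30. It holds, among others, DNA and histone methyltransferases, HP1 proteins, the HUSH complex and Tet enzymes. Of these, 29 passed the filter in each comparison. From HSC to LMPP 3 of the 29 rose and 0 fell, where 6.51% of all tested rows rose and 9.35% fell. Uhrf1, which brings Dnmt1 to newly replicated DNA, went from 3.75 to 49.0 CPM (median 18.6) in HSC to 13.7 to 71.2 CPM (median 58.9) in LMPP, a change of 1.53 ± 0.36 (edgeR, adjusted p = 0.00452). Hells, a remodelling factor needed for DNA methylation of repeats, went from a median of 110.4 to 255.5 CPM (1.28 ± 0.26, adjusted p = 0.00105). Cbx1, an HP1 protein, went from 89.3 to 126.3 CPM (0.57 ± 0.18, adjusted p = 0.0260). The median log2 change over the list was 0.09, against -0.12 over all gene rows. None of the 29 was called in either later step or in a genotype comparison, where the list medians were 0.09, 0.13, -0.09 and -0.07 in HSC, LMPP, ALP and BLP.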

How the data were processed

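The authors deposited raw read counts for 40 Smart-seq2 libraries (full-length cDNA, no molecular identifiers, strand not marked). Alignment used STAR 2.5.2b and counting HTSeq 0.6.1p1 on GRCm38, per the submitters' processing notes. Annotation version, strand option and the handling of reads with several matches were not given in the sources used here. Gene symbols came from GENCODE M21 (49326 of 49585 identifiers matched).

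Counts were scaled by each library's total over gene rows (2974305 to 9082610). The main test of single rows was edgeR's quasi-likelihood test (edgeR 4.0.16, run under R 4.3.3), robustly fitted, with no further scaling and edgeR's own filter on low rows (minimum count 10, minimum total 15). Gene and repRegion rows were fitted together and p-values adjusted by Benjamini-Hochberg at 0.05. Genotype comparisons were 5 against 5 libraries, and steps between populations 10 against 10 with genotype as a term. Summed levels were tested on the log2 scale by two-sided permutation, exact over 252 arrangements between genotypes and with 100000 resamples between populations. Scripts were tested on simulated counts. Intervals and floors cover counting error only.

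The 4 populations come from the same mice, so the mouse number pairs them. Deviations from group means of libraries of 1 mouse correlated at -0.06 to 0.30 from HSC to LMPP, -0.29 to 0.38 from LMPP to ALP and -0.21 to 0.32 from ALP to BLP. The fit with the mouse as a block was an alternative. Others were TMM scaling, DESeq2 1.42.0, other filters and thresholds, and leaving out rows, libraries or mice. No 2 libraries held identical counts.

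Named rows are the 10 most counted, up to 5 called rows per direction and comparison whose higher side averaged 5 CPM or more, the 3 with the largest share in 1 library, the 3 on each side of the threshold and the 5 most even. The rows, lists and rules were chosen with earlier results of these data known. Sequences of these rows were not used here. Of the 5840 repRegion rows with 1 to 99 counts, 0 passed the filter, and they are not described row by row. The summed level of the mature B cell markers and 1 gene that followed repRegion57222 are not reported here.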

Additional observations from a re-analysis of the deposited data

Results flagged for a closer look

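The sum of the 400 rows other than repRegion26734 in the control ALP library of mouse10372, 6573.5 CPM, stood apart from the other 4 libraries of its group by Dixon's test at the 95% level. It was the only such library in 24 groups of 5 tested (8 groups, 3 sums), where chance alone marks about 1 group in 20. In addition, 59799 counts fell on the 5840 repRegion rows with 1 to 99 counts, which are outside the comparisons described row by row.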

How the results depend on the processing

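The sums over all 401 rows did not pass the threshold under any scaling tried, but several small differences changed sign. The BLP genotype difference was 0.000467 with TMM and 0.0237 with DESeq2 size factors, and -0.24 to 0.31 when 1 library was left out. From LMPP to ALP the change was -0.36 to 0.26 when 1 mouse was left out (lowest without mouse10372) and -0.43 without control mouse10372 and mouse10381, when that from ALP to BLP was 0.10. Without repRegion26734 the HSC to LMPP change was -0.30 and its difference between genotypes -0.15. Without the 10 most counted rows the HSC to LMPP change was -0.23, the genotype difference -0.0443 in HSC and -0.00749 in LMPP, and the genotype difference of the ALP to BLP step -0.0358. With repRegion26734 and the control ALP library of mouse10372 both left out, a choice made after seeing the data, the ALP genotype difference was 0.14, the ALP to BLP change 0.23 and its genotype difference -0.12. Over the fits that left out 1 library or mouse, with this one included, these 3 ran from -1.36 to 0.14, from -0.46 to 0.23 and from -0.12 to 1.28.

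Called rows from HSC to LMPP, 12 in the main analysis, numbered 38 with DESeq2 (20.5% of all rows), 24 with no filter (8.89%), 4 with a minimum count of 50 (17.2%), 3 in control mice alone (5.78%) and 3 in Mbd3del mice alone (6.72%), and 11 to 16 when 1 mouse was left out (13.3% to 16.7%). The share among the tested repRegion rows was below that of all rows in each of the first 5. From LMPP to ALP the 4 became 15 with DESeq2 (6.49% of all rows), 2 in each genotype alone (0.874% in control and 2.15% in Mbd3del mice), 2 without mouse10372 and mouse10381 (3.82%), and 2 to 4 without 1 mouse (2.72% to 4.69%; 2 without mouse10358, mouse10361 or mouse10376). From ALP to BLP the 1 became 3 with DESeq2 (2.5% of all rows), 0 in control mice alone (0.245%), where edgeR gave 5 rows at an unadjusted p below 0.05 (4.55% of all rows), and 2 in Mbd3del mice alone (0.63%). In the later steps the share among tested repRegion rows was at times above that of all rows. From LMPP to ALP this held in control mice alone (1.68%) and with a minimum count of 50 (10% against 4.12%). From ALP to BLP it held in Mbd3del mice alone (1.71%) and with a minimum count of 50 (3.23% against 1.09%). With DESeq2 and with no filter it was below in both steps. DESeq2 called 1 row in LMPP, 1 in ALP and 3 in BLP between genotypes, against 0.897%, 0.229% and 1.8% of all rows. With the mouse as a replicate block the counts were 11, 4 and 1, and the sums changed by 0.28, 0.00494 and -0.31 with permutation p of 0.443, 0.992 and 0.418 over sign flips; apart from repRegion24320, the block changed no call of a named row. The cause of these changes was not tested, except that fewer rows or mice enter under a stricter filter or a single genotype. A count of 3 limits what can be seen to 0.330 to 1.01 CPM in a library, and 206 of the 401 rows were too low to test.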
